A study of Mus musculus with 12 samples.

Results

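Long intergenic noncoding RNAs (lincRNAs) are spliced or unspliced transcripts that lie between protein-coding genes and are not known to be translated. The 313 lincRNAs described here are the rows of the deposited table with the biotype lincRNA and a mean level of at least 5 over the 12 libraries, with the Snhg genes and Gas5 left out because they host small nucleolar RNAs. They were taken from 5854 lincRNA rows among 55536 rows in all, of which 3169 lincRNA rows were at 0 in every library. Levels are regularized log (rlog) values, a log2 scale of read counts that the authors scaled for library size. The members were thus chosen by their measured levels in these libraries, so being detected is no finding about them.

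The cells were B16.F10, a mouse melanoma line of C57BL/6 background. They carried a small interfering RNA (siRNA) for 72 h, either siLuc, against luciferase, as the control, or siPRMT7, against the arginine methyltransferase gene Prmt7. For the last 24 h a set of each was exposed to interferon gamma (IFN-γ), the cytokine by which T cells raise antigen presentation. The 4 groups were therefore siLuc, siLuc with IFN-γ, siPRMT7 and siPRMT7 with IFN-γ, each of 3 libraries of poly(A)-selected RNA made with a strand-marking kit. The labels do not say that the libraries of a group came from separate cultures, so p-values measure the spread between these libraries, which may be technical. All groups share 1 line and 1 siRNA label per target.

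As background, lincRNAs act in several ways. Some, such as Neat1 and Malat1, stay in the nucleus and form or decorate nuclear bodies. Some act on the gene beside them, as described for mouse Pvt1, and some act in the cytoplasm, as Norad and Cyrano do. Many hold no known function at all, and only 22 of the 313 carry a gene name of their own.

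Library totals ran from 18.971 to 30.978 M reads. Prmt7 had a level of 10.25 ± 0.09 (SD, n = 3) in siLuc and 6.30 ± 0.12 in siPRMT7 cells, and 10.25 ± 0.02 and 6.25 ± 0.15 with IFN-γ, so it was lower in every siPRMT7 library. Of 7 melanocyte markers (Mitf, Pmel, Tyr, Tyrp1, Dct, Mlana and Sox10) all were measured, at mean levels between 12.97 and 17.11. Of 8 leukocyte markers, Cd3e and Adgre1 were at 0 in every library, and Cd68 and Csf1r passed the minimum level of 4 for a test. The summed linear level of the 8 ran from 402 to 415 in siLuc, 342 to 400 in siLuc with IFN-γ, 442 to 520 in siPRMT7 and 557 to 583 in siPRMT7 with IFN-γ. For 7 markers of fibroblasts, endothelium and keratinocytes, of which 3 passed, it ran from 670 to 826, 272 to 307, 980 to 1110 and 650 to 778 in the same order. Single genes weigh most in these sums. Csf1r had a mean level of 8.56 beside 6.05 for Cd68, and Col1a2 had 9.01 beside 5.68 for Pdgfra and 4.84 for Col1a1. The median knockdown difference of the last 3 was -0.42 without and 0.30 with IFN-γ, so it did not follow the sum without IFN-γ. The part of such markers in the results was not tested. In bulk RNA, fewer cells of a type and less RNA per cell cannot be told apart.

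Many lincRNAs lie across from, or inside, other genes. Of the 313, 173 shared no exon base with any measured gene in the GENCODE M21 annotation, 140 shared some, and 103 shared at least 10% of their exon bases. For 82 of these the sharing gene was tested and had a higher level. Among the 47 that shared at least 50%, the knockdown difference lay within 0.25 (log2) of that of the sharing gene for 42, and the IFN-γ difference in siLuc cells for 44. Gm26778, all of whose exon bases lie opposite those of Kctd12, had a knockdown difference of 1.98 beside 2.02 for Kctd12. Levels per base were compared for 69 noncoding genes of any level that lay at least 90% across from a coding gene. The coding gene had a mean level of at least 10, and 41 of the 69 were antisense genes. The median log2 difference from the coding gene was 0.06 (quartiles -2.001 and 0.625). For the 17 lincRNAs among them it was -0.15 (quartiles -4.18 and 0.38), with 9 above -1, so some had levels much like the coding gene and others far lower ones. The labels and headers do not say whether the authors counted by strand, so the reads of such lincRNAs and those of the overlapping gene cannot be told apart. Counts are therefore also given for the 173 members with no shared base.

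**Figure D1:**
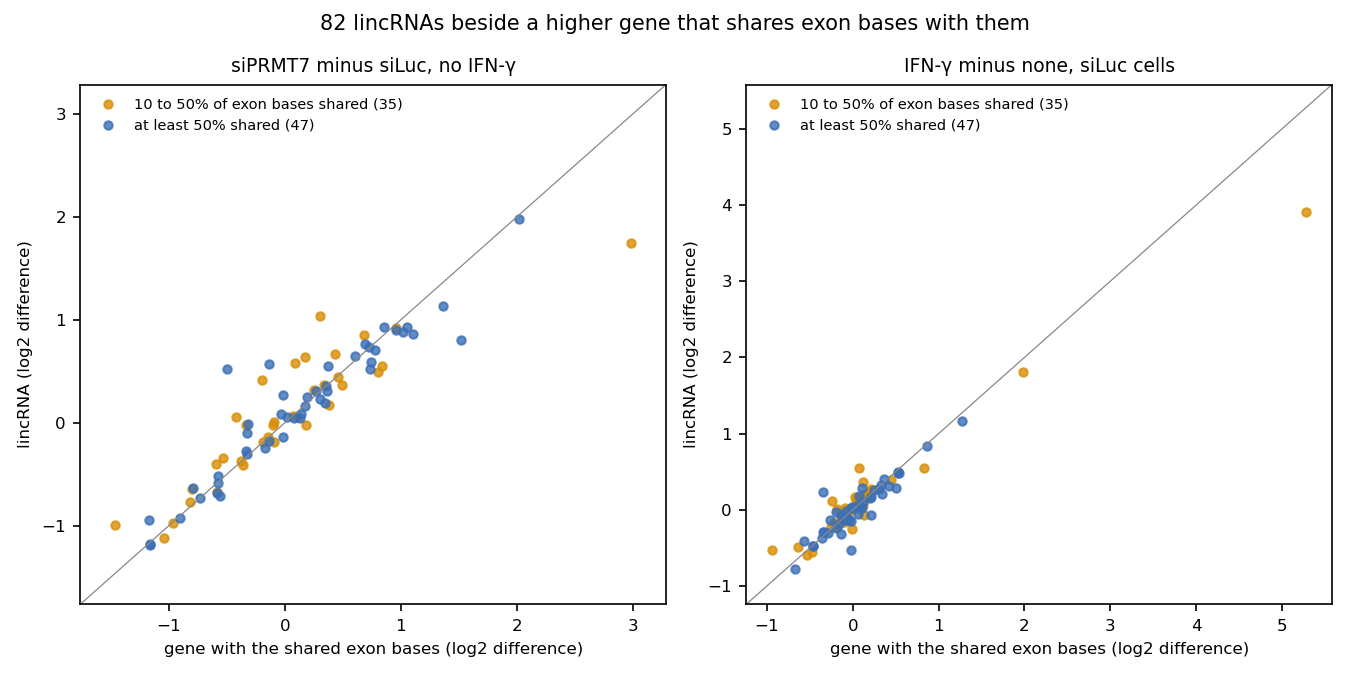
Log2 difference of each of 82 lincRNAs (vertical axis) against that of the higher gene sharing at least 10% of its exon bases (horizontal axis), for knockdown without IFN-γ (left) and IFN-γ in siLuc cells (right). Blue points share at least 50% and orange points less. The line marks equal differences. Most points lie near it, 42 of 47 blue points on the left and 44 of 47 on the right within 0.25.

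The members spanned 20 chromosomes and mean levels from 5.01 to 14.67, with a median of 6.60. Most were weakly expressed, 108 lying between 5 and 6 and 21 at 10 or above. Transcript lengths in the table ran from 167 bases for Bc1 to 93146 for AC160336.1, with a median of 1809, and 37 members had a single exon block. The members just inside the threshold were Gm26613, Gm15728 and Gm26742 with means of 5.01, 5.02 and 5.02, and just outside lay Gm17501, C430042M11Rik and A730063M14Rik with 4.986, 4.991 and 4.996. Because the mean ran over all groups, 43 members stood below 5 in at least 1 group, 32 of them in siLuc and 8 in siPRMT7 cells. Such members reached the threshold through groups where they were higher, so their differences are tied in part to how members were chosen.

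The highest rows were not typical lincRNAs. Gm42418, at a mean of 14.67, and AY036118, at 14.27, lie on each other and on a ribosomal RNA row, CT010467.1, on chr17:39846958-39848788, with 99.5% and 100% of their exon bases shared. Gm26917 (chr17:39843013-39846341) lies just beside them. These 4 rows held 0.349% to 0.728% of the summed linear values in siLuc libraries, 0.293% to 0.592% in siLuc with IFN-γ, 0.232% to 0.33% in siPRMT7 and 0.24% to 0.317% in siPRMT7 with IFN-γ. All the other members together held 0.366% to 0.39%, 0.39% to 0.441%, 0.488% to 0.572% and 0.52% to 0.613%. With Malat1 left out too, they held 0.343% to 0.37%, 0.371% to 0.406%, 0.426% to 0.437% and 0.449% to 0.455%, so Malat1 made up part of the difference. The siLuc and siPRMT7 ranges of the members do not overlap with or without Malat1, nor with or without IFN-γ. Per kilobase of transcript, on the log2 scale, Malat1 stood at 10.68, AU020206 at 9.81, 1700020I14Rik at 8.58, 2900097C17Rik at 8.55 and Neat1 at 7.64.

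Knockdown of Prmt7 without IFN-γ went with higher levels of more lincRNAs than lower ones. Of the 313, 168 were called higher in siPRMT7 cells and 60 lower at a limma adjusted p under 0.05, with a median log2 difference of 0.30. Over all 14407 genes tested, 75.2% were called, 36.3% higher and 38.9% lower, with a median of -0.01. At least 2-fold higher were 39 members, against 4.65% of all genes, and at least 2-fold lower were 6, against 3.53%. The groups did not overlap for 228 members, against 76.3% of all genes. Quantile normalization of the libraries gave 137 higher and 82 lower and a median of 0.15. Among the 173 members with no shared base, 100 were higher and 26 lower. Among the 64 members with a mean of 8 or above, 29 were higher and 22 lower.

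Other gene classes were counted the same way. Protein-coding genes with a mean of at least 5 had 4057 higher and 4991 lower of 11410, while those with a mean of 5 to 8, the level of most lincRNAs, had 948 higher and 608 lower of 2194, that is 43.2% and 27.7%. Antisense genes had 227 higher and 131 lower of 585, and TEC genes, which are transcripts still to be experimentally checked, 82 and 33 of 185. The 112 lincRNAs just below the threshold, with a mean of 4 to 5, had 48 higher and 8 lower. The differences between these classes were not tested.

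**Figure D2:**
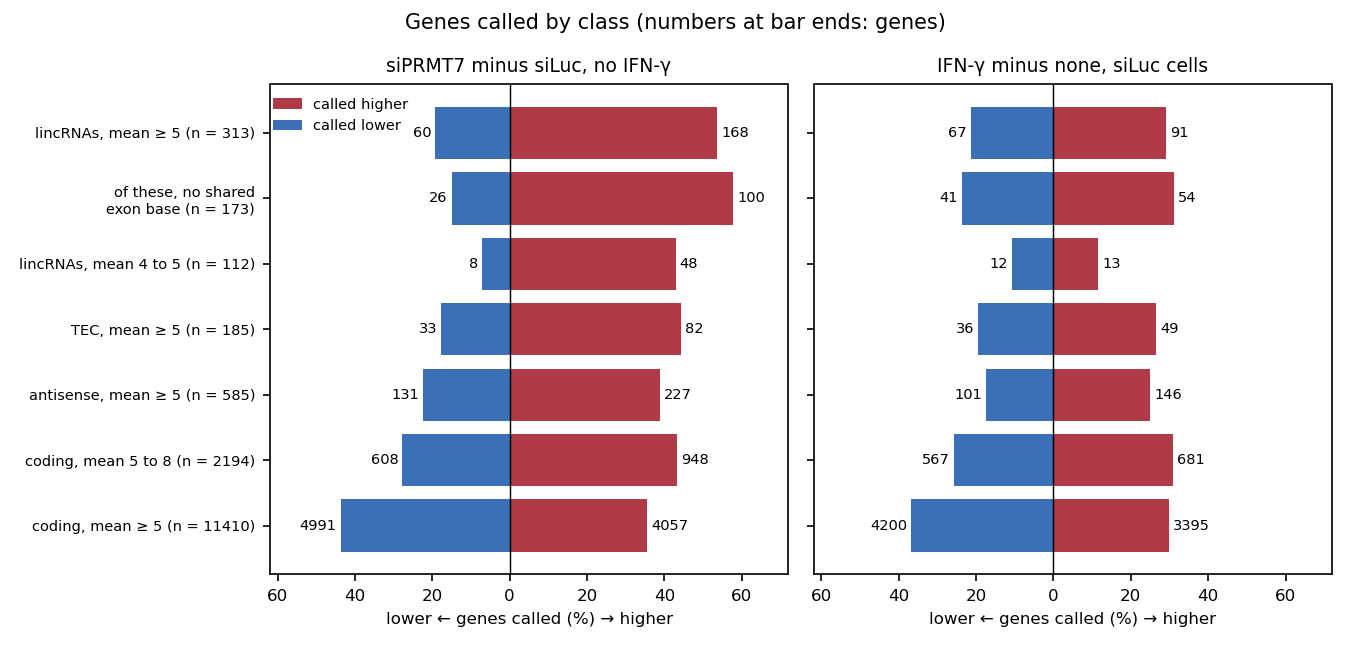
Share of genes called higher (red, to the right) and lower (blue, to the left) in percent, by class, for knockdown without IFN-γ (left) and IFN-γ in siLuc cells (right); numbers at the bar ends count genes. In the left panel the lincRNAs have 168 higher and 60 lower, and all coding genes with a mean of at least 5 have 4057 higher and 4991 lower.

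The 6 largest called rises without overlap were of Gm21269, Gm11734, Gm26519, Malat1, C78283 and Gm26778. Malat1, at 2.01, is described with the nuclear bodies, and Gm26778, at 1.98, lies opposite Kctd12 as given. The others have no role given in the files. Gm21269 (chr7:73816546-73838898, plus strand, a transcript of 12449 bases that shares no exon base with a measured gene) had levels of 4.25, 4.21 and 3.97 in siLuc and 6.79, 6.64 and 6.76 in siPRMT7 libraries. It was thus 6.0-fold higher (log2 2.58, SE 0.10, adjusted p = 4.17e-15), and the groups lay far apart. Its siLuc level near 4 is drawn toward the mean, and the authors' deposited table gives a log2 fold of 4.69. It reached the minimum mean of 5 through its siPRMT7 libraries, so this difference is tied in part to how members were chosen. Gm11734 (chr11:117523603-117532205) rose from 6.56, 6.36 and 6.15 to 8.81, 8.65 and 8.68, a difference of 2.36 (SE 0.10). Gm26519 (chr5:105401245-105406970) rose from 4.91, 5.01 and 5.07 to 7.37, 7.30 and 7.27, a difference of 2.32 (SE 0.08). None of these 3 shares exon bases with a measured gene. C78283, an expressed sequence on chromosome 5, was higher by 1.99 (SE 0.10). All of these groups were without overlap.

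The falls were smaller. Lockd (chr6:134929092-134956798), named in mouse as the lincRNA downstream of the cell cycle inhibitor gene Cdkn1b, had 9.67, 9.61 and 9.55 in siLuc and 8.31, 8.30 and 8.33 in siPRMT7 libraries, a fall of 1.30 on the log2 scale (SE 0.09, adjusted p = 2.62e-11). 2810429I04Rik fell from 6.69, 6.60 and 6.55 to 5.68, 5.52 and 5.58 (log2 -1.03, SE 0.12). Both groups of libraries were fully apart for these 2 lincRNAs. Gm26765 was lower by -1.12, but shares 35.3% of its exon bases with Tmpo on the other strand, which was lower by -1.05. Ino80dos, which starts beside the chromatin remodelling gene Ino80d on the other strand, was lower by -0.99 (SE 0.07). It shares exon bases with Ndufs1, which was lower by -1.46, and with Ino80d. The ribosomal RNA-like Gm42418 had 15.62, 14.66 and 15.78 in siLuc and 14.48, 14.08 and 13.93 in siPRMT7 libraries. Its difference of -1.19 carried a large SE of 0.23, stood beside -1.16 for the ribosomal row itself, and Gm26917 had -1.18 (SE 0.13).

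With IFN-γ present, the knockdown was measured again in separate libraries. There 159 members were higher and 70 lower, with a median difference of 0.22, while 74.7% of all genes were called, 35.9% higher and 38.7% lower. The groups did not overlap for 232 members, against 77.2% of all genes. At least 2-fold higher were 48, against 3.9% of all genes, and 5 were at least 2-fold lower, against 4.94%. Called higher in both knockdown comparisons were 139 members, 44.4% of the members, where 28.7% of all genes were. They made up 82.7% of those higher without IFN-γ and 87.4% of those higher with it, near the 79.1% and 79.9% over all genes. Called lower in both were 47 of the 313 members, where 31.8% of all genes were, and these were 78.3% and 67.1% of those lower, beside 81.8% and 82.1% over all genes. Called in opposite directions were 6 members, namely AU020206, Gm26669, 1110019D14Rik, Zfp469, Gm16046 and Gm26813, against 2.89% of all genes. The call of Gm26813 without IFN-γ (-0.34) was lost without the first siLuc library, at -0.17, and without siPRMT7 library 2 or 3, at -0.33 and -0.25.

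**Figure D3:**
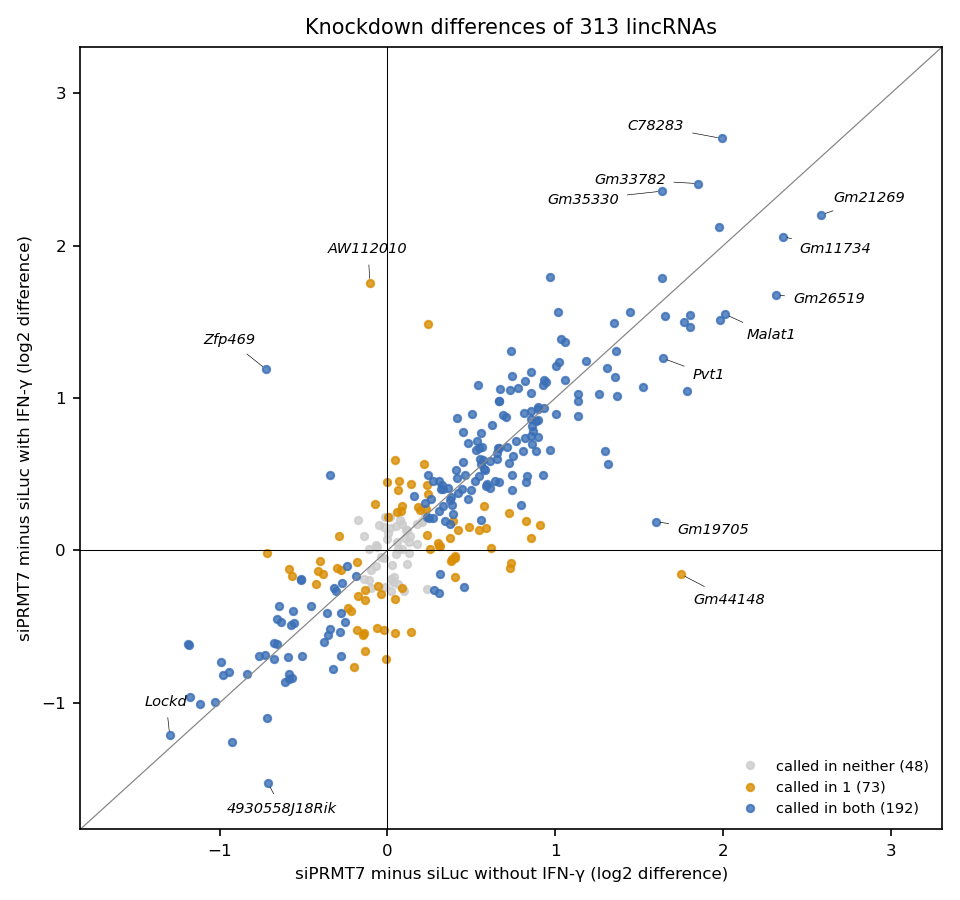
Log2 difference siPRMT7 minus siLuc of each of the 313 lincRNAs without IFN-γ (horizontal axis) and with IFN-γ (vertical axis). Blue points are called in both comparisons (192), orange in 1 (73) and grey in neither (48), and the line marks equal differences. Most blue points lie at the upper right, AW112010 and Zfp469 stand above the line, and Gm44148 and Gm19705 below it.

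For some lincRNAs the rlog difference between siPRMT7 and siLuc cells was larger with IFN-γ. C78283 had 4.17, 3.95 and 4.04 in siLuc with IFN-γ and 6.84, 6.80 and 6.63 in siPRMT7 with IFN-γ, so it was 6.52-fold higher (log2 2.704, SE 0.10, adjusted p = 1.76e-15). Gm33782 (chr10:96310131-96362367) was higher by 2.41 (SE 0.11) after 1.85 without IFN-γ, and Gm35330 (chr13:5539279-5724510) by 2.36 (SE 0.11) after 1.63. For these 3 the difference between both knockdown effects, tested as the interaction, was 0.71, 0.56 and 0.72, with adjusted p of 0.000812, 0.0118 and 0.00116. Their siLuc levels without IFN-γ lay between 3.83 and 4.70, where the rlog scale draws values together. They reached the minimum mean of 5 through their other groups. The knockdown log2 folds in the authors' deposited table were 4.93 without and 4.86 with IFN-γ for C78283, 3.54 and 3.56 for Gm33782, and 2.84 and 3.19 for Gm35330, so the larger difference rests on the rlog scale for the first 2. 4930558J18Rik, which starts 76 bases from 1700066M21Rik on the other strand, moved the other way. It stood at 5.62, 5.86 and 5.99 in siLuc with IFN-γ and 4.33, 4.20 and 4.35 in siPRMT7 with IFN-γ, a fall of 1.53 on the log2 scale (SE 0.13). Its neighbour was lower by -0.72 (SE 0.08) in the same comparison.

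Neat1 and Malat1, neighbours on chromosome 19, are the lincRNAs of nuclear bodies. Neat1 is the scaffold of paraspeckles, and Malat1 gathers in nuclear speckles, where splicing factors are stored. Malat1 (chr19:5795690-5802672, minus strand) had 12.15, 11.999 and 12.82 in siLuc, 12.78, 12.17 and 13.62 in siLuc with IFN-γ, 14.48, 13.72 and 14.81 in siPRMT7, and 14.23, 13.84 and 15.15 in siPRMT7 with IFN-γ. Every siPRMT7 library lay above every siLuc library of the same treatment, and library 3 was the highest and library 2 the lowest in all 4 groups. The difference was 2.01 without and 1.55 with IFN-γ (SE 0.31 each, adjusted p = 6.29e-06 and 0.000143), or 4.04-fold and 2.93-fold. Its SDs were between 0.44 and 0.72, and it had the largest SD of any member in every group but siLuc. The mature Malat1 end is not made by the usual polyadenylation, on which the library kit relies. The part of the poly(A) selection in this result was not tested.

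Neat1 (chr19:5824708-5845478, minus strand) followed IFN-γ instead. It had 11.91, 11.28 and 11.12 in siLuc and 12.89, 12.24 and 12.66 in siLuc with IFN-γ, and 11.63, 11.61 and 11.76 in siPRMT7 and 12.12, 12.50 and 12.42 in siPRMT7 with IFN-γ. The libraries with IFN-γ lay above those without it in both siRNA groups. The rise was 1.16 (SE 0.15, adjusted p = 8.53e-07) in siLuc and 0.68 (SE 0.15, adjusted p = 0.000576) in siPRMT7 cells, and the difference of these rises was not called (-0.48, SE 0.21, adjusted p = 0.0897). Knockdown differences of Neat1 were 0.23 and -0.25 (adjusted p = 0.163 and 0.134). The 15 proteins of paraspeckles are RNA-binding proteins, of which Nono and Sfpq are required for the body to form. With knockdown 3 of them were higher and 11 lower, with a median of -0.33, and with IFN-γ in siLuc cells 1 was higher and 10 lower, with a median of -0.19. Over all genes 38.9% were lower with knockdown and 32.7% with IFN-γ. Sfpq fell by 0.50 on the log2 scale with knockdown and by 0.38 with IFN-γ, Nono by 0.37 and 0.21, while Hnrnph3 rose by 0.90 with knockdown.

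Trp53cor1 and Pvt1 are transcribed beside central growth regulators and are induced by the tumour suppressor p53 in mouse cells. Trp53cor1 (lincRNA-p21, chr17:29057430-29079179, minus strand), whose start lies 11797 bases from that of the cell cycle inhibitor gene Cdkn1a, had 6.397, 6.78 and 6.79 in siLuc and 8.04, 8.05 and 7.98 in siPRMT7 libraries. With IFN-γ it had 6.93, 7.11 and 7.04, and 8.08, 7.96 and 8.09. Knockdown raised it by 1.37 and 1.02 (SE 0.10 each), beside 1.04 and 1.34 (SE 0.04 each) for Cdkn1a. It shares 44.1% of its exon bases with AC167363.1 on the other strand, another member at a lower level, which was higher by 1.14 without IFN-γ. Pvt1 (chr15:62038061-62250973, plus strand) had 8.67, 8.41 and 8.56 in siLuc and 10.18, 10.20 and 10.19 in siPRMT7 libraries. It was higher by 1.64 without and 1.2605 with IFN-γ (SE 0.06 each), and no library of the groups compared overlapped. Myc, the growth-promoting transcription factor whose start lies 52595 bases away, went the other way at -0.49 and -1.25 (SE 0.05 each). The IFN-γ response of Pvt1 was -0.39 in siPRMT7 cells, a call, and -0.01 in siLuc cells, and this difference was itself called (-0.38, SE 0.09, adjusted p = 0.0016). Of the 4 measured lincRNAs of 6 linked to p53, 3 were higher with knockdown, namely Trp53cor1, Pvt1 and Tug1, an antisense row and not a member, at 0.52. Neat1, the other on the list, was not called. Over all genes 36.3% were called higher with knockdown alone, so 3 of 4 is a small count beside a high share.

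Ftx and Jpx lie on the X chromosome beside Xist and are known as positive regulators of it in mouse. Ftx had 7.40, 6.99 and 7.23 in siLuc, 7.65, 7.43 and 7.60 in siLuc with IFN-γ, 8.12, 8.15 and 8.04 in siPRMT7 and 8.53, 8.43 and 8.50 in siPRMT7 with IFN-γ. It rose with knockdown by 0.90 and 0.93 (SE 0.09 each), and with IFN-γ by 0.35 in siLuc and 0.39 in siPRMT7 cells, where the first was no longer called after quantile normalization, at 0.18. The libraries of each siRNA did not overlap. Jpx had knockdown differences of 0.13 and -0.02, neither called. Of 5 lincRNAs on this list 3 were measured, the other being Firre, not a member.

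Mir17hg (chr14:115042879-115046727, plus strand) is the host transcript of the miR-17-92 cluster, microRNAs that promote growth and whose transcription Myc raises. Its levels were 7.0002, 6.72 and 6.78 in siLuc and 6.36, 6.12 and 6.36 in siPRMT7 libraries, and 6.61, 6.36 and 6.54 against 5.84, 6.10 and 6.16 with IFN-γ. It fell by 0.56 without and 0.47 with IFN-γ on the log2 scale (SE 0.11 each, adjusted p = 0.000111 and 0.0006), and the groups were apart in both. IFN-γ in siLuc cells gave -0.33, a call lost without the first siLuc library (-0.25) or the second siLuc library with IFN-γ (-0.26). The 6 main mature microRNAs cut from this host are printed because they are its known product, from RefSeq on GRCm38.p6, with the seed, bases 2 to 8 by which they pair with targets, in capitals. The mature microRNAs themselves were not measured here.
mmu-miR-17-5p: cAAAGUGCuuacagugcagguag
mmu-miR-20a-5p: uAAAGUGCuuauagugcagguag
mmu-miR-18a-5p: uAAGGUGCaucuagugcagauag
mmu-miR-19a-3p: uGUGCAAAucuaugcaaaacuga
mmu-miR-19b-3p: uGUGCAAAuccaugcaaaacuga
mmu-miR-92a-3p: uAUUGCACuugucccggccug
MiR-17-5p and miR-20a-5p share the seed AAAGUGC, miR-19a-3p and miR-19b-3p share GUGCAAA, and miR-18a-5p and miR-92a-3p each have their own. Of 4 measured microRNA hosts of 12 listed, 1 was higher and 2 lower with knockdown, beside 36.3% and 38.9% of all genes. The other called ones were Mir22hg at 1.03 and Dleu2 at -1.04, both rows of another biotype.

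Among the lincRNAs of the cytoplasm, Cyrano (1700020I14Rik, chr2:119594303-119607502), which in mouse binds miR-7 and brings about its decay, had 11.81, 11.79 and 11.91 in siLuc and 11.28, 11.22 and 11.23 in siPRMT7 libraries. It fell with knockdown by 0.59 and 0.70 on the log2 scale (SE 0.04 each), with no overlap of libraries, and rose with IFN-γ by 0.24 in siLuc cells. Norad (2900097C17Rik, chr2:156388065-156392979), known for its part in keeping the genome stable, went the other way, from 10.58, 10.49 and 10.63 to 10.95, 10.94 and 10.99. Its knockdown differences were 0.39 and 0.24 (SE 0.05 each). Epb41l4aos rose with knockdown by 0.58 and 0.53. This list has 10 symbols, with Norad and Cyrano each under more than 1 name, and 6 were measured. Of these, 4 were higher and 2 lower with knockdown alone, beside 36.3% and 38.9% of all genes. Bc1, a short RNA made by RNA polymerase III and best known from neurons, had 7.71, 7.82 and 7.77 in siLuc and 7.22, 7.41 and 7.31 with IFN-γ, and 7.80, 7.87 and 7.77 in siPRMT7 and 6.78, 6.92 and 6.60 with IFN-γ. Its IFN-γ responses were thus -0.46 in siLuc and -1.05 in siPRMT7 cells on the log2 scale, and their difference was called (-0.59, SE 0.12, adjusted p = 0.000879). LTO1, a coding gene whose start lies 630 bases away on the same strand, had -0.52 and -1.61. Those responses differed by -1.10 (SE 0.07), so the neighbours moved in the same direction.

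IFN-γ moved fewer lincRNAs than knockdown did, as it did over all genes, of which 75.2% were called with knockdown alone. In siLuc cells 91 members were higher and 67 lower, with a median of 0.03, while 60.6% of all genes were called, 28.0% higher and 32.7% lower. The groups did not overlap for 154 members, against 62.1% of all genes. At least 2-fold higher were 17, against 4.57% of all genes, and 4 were at least 2-fold lower, against 1.01%. In siPRMT7 cells 76 were higher and 67 lower, while 56.6% of all genes were called, 28.0% higher and 28.6% lower. There the groups did not overlap for 175 members, against 65.3%, with 13 and 7 at least 2-fold higher and lower, against 3.57% and 2.69%. The shares called higher lay near those of all genes. Quantile normalization turned the balance in siLuc cells to 56 higher and 104 lower, with a median of -0.11. Higher in both siRNA groups were 55 members, 17.6% of the members, where 19.1% of all genes were. They made up 60.4% of those higher in siLuc and 72.4% of those higher in siPRMT7 cells, beside 68.2% and 68.1% over all genes. Lower in both were 42, 13.4% of the members, where 21.2% of all genes were, and these were 62.7% of each list, beside 65.0% and 74.3% over all genes. Another 4 were called in opposite directions, Gm26778, 2700054A10Rik, AC174800.1 and Gm26813, beside 2.64%. They include an overlapping pair, as 95.5% of the exon bases of AC174800.1 lie in 2700054A10Rik.

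**Figure D4:**
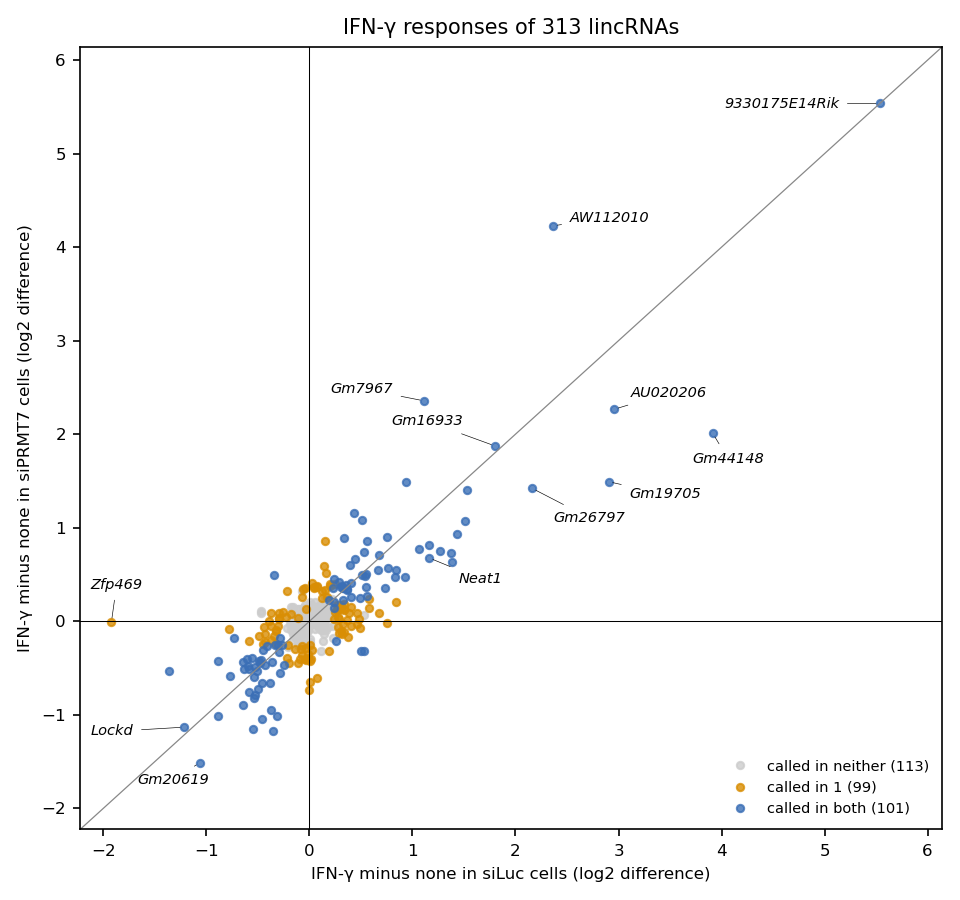
Log2 difference with IFN-γ of each of the 313 lincRNAs in siLuc cells (horizontal axis) and siPRMT7 cells (vertical axis). Blue points are called in both (101), orange in 1 (99) and grey in neither (113), and the line marks equal differences. 9330175E14Rik lies on the line at 5.54, AW112010 and Gm7967 above it, and Gm44148 and Gm19705 below it, while Zfp469 lies at -1.92 in siLuc and -0.01 in siPRMT7 cells.

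The strongest IFN-γ response was of 9330175E14Rik (chr8:94422898-94434166, minus strand). It had 4.95, 4.83 and 4.81 in siLuc and 10.42, 10.43 and 10.36 with IFN-γ, and 4.75, 4.82 and 4.91 in siPRMT7 and 10.42, 10.37 and 10.29 with IFN-γ. The rise was 5.54 in both (SE 0.08, adjusted p = 5.53e-24 and 1.08e-23), 46.5-fold and 46.4-fold, and knockdown differences were -0.04 in both. Below 5 without IFN-γ, 9330175E14Rik reached the minimum mean through its groups with IFN-γ. Nlrc5, the transactivator of MHC class I genes, lies on the other strand with its start 747 bases away. The genes overlap at their starts, and 1.3% of the exon bases of 9330175E14Rik are shared with Nlrc5. Nlrc5 rose by 7.21 in siLuc and 5.95 in siPRMT7 cells, and by 1.53 with knockdown alone (SE 0.07 each). Its IFN-γ responses differed by -1.26 (SE 0.10), where those of 9330175E14Rik differed by -0.00 (SE 0.11, adjusted p = 0.985).

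AU020206 (chr7:75769038-75772046) was the most abundant lincRNA with a large response. It had 10.09, 9.78 and 9.74 in siLuc, 12.89, 12.76 and 12.84 in siLuc with IFN-γ, 10.33, 10.30 and 10.35 in siPRMT7 and 12.59, 12.64 and 12.54 in siPRMT7 with IFN-γ. The rise was 7.77-fold in siLuc (log2 2.96, SE 0.06) and 4.81-fold in siPRMT7 cells (2.27, SE 0.06), and the responses differed by -0.69 (SE 0.09, adjusted p = 3.3e-06). It was higher with knockdown alone by 0.45 and lower with IFN-γ present by -0.24, a call that quantile normalization ended at -0.14. It shares no exon base with a measured gene.

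AW112010, a transcript of mouse immune cells known to be translated into a protein despite its annotation, had a larger rlog response after knockdown. It had 3.83, 3.80 and 3.81 in siLuc and 6.19, 6.13 and 6.21 with IFN-γ, but 3.70, 3.74 and 3.68 in siPRMT7 and 8.03, 7.73 and 8.05 with IFN-γ. The rise was 5.16-fold (log2 2.37, SE 0.10) in siLuc and 18.7-fold (4.23, SE 0.10) in siPRMT7 cells, and the responses differed by 1.86 (SE 0.14, adjusted p = 1.28e-09). The levels without IFN-γ, below 4, are drawn toward the mean, and AW112010 passed the minimum level through its groups with IFN-γ. The authors' deposited table gives log2 folds of 8.84 in siLuc and 9.24 in siPRMT7 cells, which differ by 0.40, so the size of the difference in response rests on the scale. With IFN-γ present, where levels were higher, the knockdown difference was 1.76 here (SE 0.10), with a log2 fold of 1.99 in the authors' deposited table. Gm7967 (chr1:98589517-98594558) also had the larger rise in siPRMT7 cells, with rises of 1.11 and 2.36 (SE 0.12 each) and a difference of 1.24 (SE 0.18, adjusted p = 1.15e-05). Its levels were 4.90, 4.52 and 4.58, then 5.83, 5.85 and 5.66 in siLuc cells, and 5.02, 4.62 and 5.09, then 7.24, 7.34 and 7.21 in siPRMT7 cells. Gm14005 (Morrbid) prolongs the life of short-lived myeloid cells in mouse. Its response was 0.02 in siLuc cells, not called, and -0.40 in siPRMT7 cells. Of 11 symbols on a list linked to immunity, where Gm14005 also stands as Morrbid, 4 were measured. With IFN-γ in siLuc cells 3 were higher and 0 lower, beside 28.0% and 32.7% of all genes. The higher ones were AW112010, Neat1 and Mir22hg.

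Gm19705 and Gm26797 rose with either treatment alone. Gm19705 (chr1:136683396-136690804) had 6.74, 6.53 and 6.58 in siLuc, 9.58, 9.42 and 9.56 in siLuc with IFN-γ, 8.26, 8.14 and 8.25 in siPRMT7 and 9.86, 9.64 and 9.63 in siPRMT7 with IFN-γ. IFN-γ raised it by 2.90 in siLuc and 1.49 in siPRMT7 cells and knockdown alone by 1.60 (SE 0.08 each), so the responses differed by -1.41 (SE 0.11, adjusted p = 1.44e-09). Gm26797 (chr9:122295912-122310695) had 5.38, 5.27 and 5.35, then 7.51, 7.38 and 7.59 in siLuc cells, and 7.11, 6.95 and 7.30, then 8.42, 8.66 and 8.55 in siPRMT7 cells. Its IFN-γ responses were 2.16 and 1.42 (SE 0.10 each) and its knockdown difference alone was 1.79. Gm44148 also rose with either treatment alone, with IFN-γ responses of 3.92 and 2.01. Its knockdown difference was 1.75 without IFN-γ but -0.16 with it. It shares 39.2% of its exon bases with Usp18, an interferon-induced protease gene on the other strand. Usp18 had IFN-γ responses of 5.28 and 2.14 and knockdown differences of 2.99 without and -0.15 with IFN-γ. Gm16933, with 44.2% of its bases shared with Plekha2, rose by 1.80 and 1.87 beside 1.98 and 1.94 for that gene. Gdap10, inside Nampt, rose by 1.53 and 1.41 beside 2.09 and 1.89 for Nampt.

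Some lincRNAs fell with IFN-γ. Zfp469, listed as a lincRNA although the human gene of that name encodes a zinc finger protein, had 7.91, 7.88 and 7.76 in siLuc, 5.96, 5.79 and 6.03 in siLuc with IFN-γ, 7.03, 7.17 and 7.18 in siPRMT7 and 7.15, 7.17 and 7.04 in siPRMT7 with IFN-γ. Its IFN-γ response was -1.92 on the log2 scale in siLuc cells and -0.01 in siPRMT7 cells (SE 0.09 each), and the responses differed by 1.91 (SE 0.12, adjusted p = 1.08e-10). Gm31517 (chr14:15015189-15065216) had responses of -1.36 and -0.54 (SE 0.07 each), which differed by 0.83 (SE 0.09, adjusted p = 6.53e-07). Gm20619 had -1.06 and -1.51, and AC132253.6 -0.88 and -1.01, all called.

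Lockd fell with each treatment in turn. It had 8.50, 8.33 and 8.36 in siLuc with IFN-γ and 7.31, 7.34 and 6.90 in siPRMT7 with IFN-γ, beside the 9.55 to 9.67 and 8.30 to 8.33 given for siLuc and siPRMT7 cells alone. Its IFN-γ responses were -1.21 in siLuc and -1.13 in siPRMT7 cells on the log2 scale (SE 0.09 each) and its knockdown differences -1.30 and -1.21, so the combined group was the lowest. The responses differed by 0.08 (SE 0.13, adjusted p = 0.662). Cdkn1b, whose start lies 8691 bases upstream on the same strand, had -0.23 and -0.09 with knockdown and 0.41 and 0.54 with IFN-γ (SE 0.04 each). The neighbours thus moved in opposite directions with IFN-γ.

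**Figure D5:**
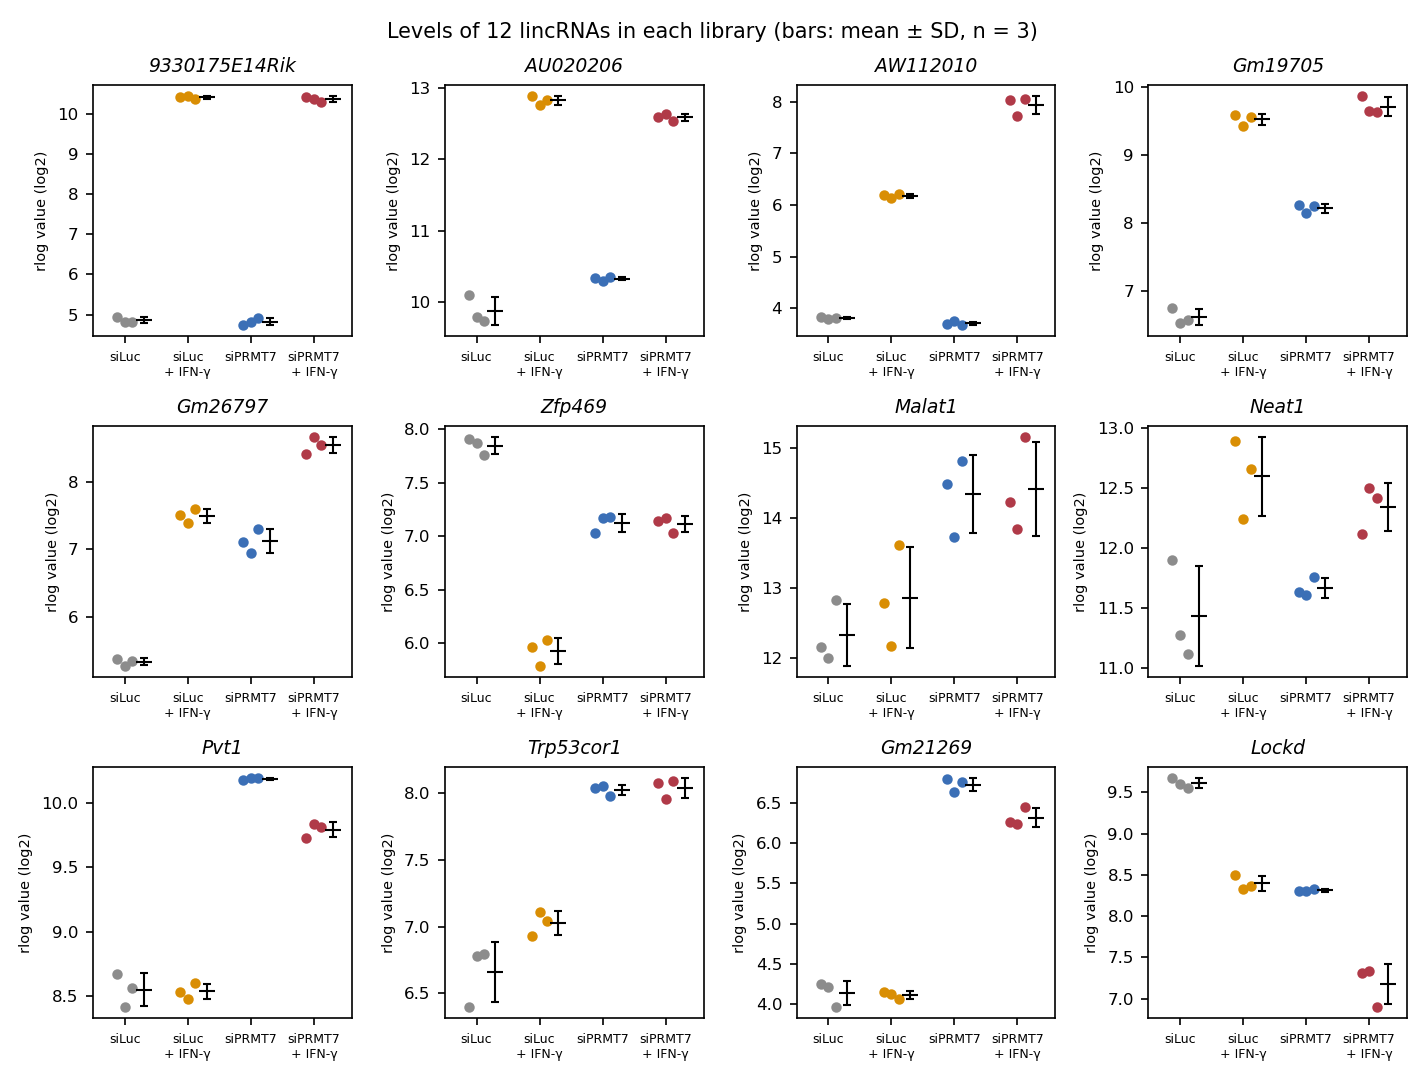
The rlog level (log2, vertical axes, each on its own range) of 12 lincRNAs in each library of the 4 groups. Points are libraries and black bars the mean ± SD of 3. 9330175E14Rik and AU020206 are high in all libraries with IFN-γ, Malat1, Pvt1, Trp53cor1 and Gm21269 in all siPRMT7 libraries, and Lockd is lowest in siPRMT7 cells with IFN-γ.

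The difference of both IFN-γ responses, the interaction, was called higher for 26 members and lower for 39, against 14.1% and 16.5% of all genes, so 65 in all beside a background of 30.6%. The median was -0.03. The split depended on scaling, being 35 and 33 after median centring and 51 and 29 after quantile normalization. Across the 4 groups, the highest mean of a member stood in siPRMT7 with IFN-γ for 126 members, in siPRMT7 for 83, in siLuc for 61 and in siLuc with IFN-γ for 43. The lowest stood in siLuc for 142, siLuc with IFN-γ for 82, siPRMT7 with IFN-γ for 59 and siPRMT7 for 30. The median member level ran from 6.26 in siLuc over 6.47 in siLuc with IFN-γ and 6.79 in siPRMT7 to 6.86 in siPRMT7 with IFN-γ.

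Promoters were searched for both DNA elements by which interferons act. The IFN-γ activated site (GAS) was searched as TTCNNNGAA, and the core of the interferon-stimulated response element (ISRE), bound by IRF factors, as GAAA, any 2 bases and GAAA, on both strands and with overlaps counted. RefSeq promoters of 300 bases (250 before to 50 after the start, GRCm38.p6) matched 131 of the 313 members by name. A GAS stood in 11 of the 131 (8.4%), beside 9.55% of 27025 genes with an entry, and in 6 of the 46 members higher with IFN-γ in siLuc cells. An ISRE core stood in 6 of the 131 (4.58%), beside 3.99% of all genes, and in 3 of the 46. Of protein-coding genes at least 2-fold higher with IFN-γ, 15.5% of 426 held a GAS and 22.3% an ISRE core. A match is a description of letters, not a binding site. The start of the deposited row lay inside the RefSeq window for 74 of the 131. Printed are the RefSeq promoter of the strongest responder, which held neither, and those of the 4 members at least 2-fold higher with IFN-γ in siLuc cells that held either, among 11 with an entry. They were chosen after their values were seen, and capitals mark the match.
9330175E14Rik, chr8:94435054-94435353, minus strand: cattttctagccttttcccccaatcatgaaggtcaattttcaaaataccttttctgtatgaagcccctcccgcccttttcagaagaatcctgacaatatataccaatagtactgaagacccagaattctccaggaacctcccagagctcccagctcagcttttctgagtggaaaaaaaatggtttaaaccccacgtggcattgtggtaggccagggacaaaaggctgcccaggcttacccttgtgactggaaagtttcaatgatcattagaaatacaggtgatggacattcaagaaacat
Gm26797, chr9:122310879-122311178, minus strand: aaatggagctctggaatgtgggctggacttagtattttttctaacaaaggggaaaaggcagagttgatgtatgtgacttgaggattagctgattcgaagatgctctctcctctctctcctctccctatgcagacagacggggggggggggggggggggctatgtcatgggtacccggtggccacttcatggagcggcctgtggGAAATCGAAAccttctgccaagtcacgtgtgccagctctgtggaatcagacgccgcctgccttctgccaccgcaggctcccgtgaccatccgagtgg
Gm26519, chr5:105400976-105401275, plus strand: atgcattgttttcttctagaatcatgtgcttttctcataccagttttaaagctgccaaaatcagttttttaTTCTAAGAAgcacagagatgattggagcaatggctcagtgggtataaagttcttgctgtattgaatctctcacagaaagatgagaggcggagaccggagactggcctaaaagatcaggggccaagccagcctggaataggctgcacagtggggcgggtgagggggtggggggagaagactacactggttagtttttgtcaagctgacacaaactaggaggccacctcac
Gm46404, chr13:23445922-23446221, minus strand: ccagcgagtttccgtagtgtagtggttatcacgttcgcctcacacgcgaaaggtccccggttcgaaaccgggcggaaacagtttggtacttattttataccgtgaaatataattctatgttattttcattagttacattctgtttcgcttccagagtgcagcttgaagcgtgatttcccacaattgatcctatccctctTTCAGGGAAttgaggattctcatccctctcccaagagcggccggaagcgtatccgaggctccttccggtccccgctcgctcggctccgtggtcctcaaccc
C230035I16Rik, chr13:23430968-23431267, minus strand: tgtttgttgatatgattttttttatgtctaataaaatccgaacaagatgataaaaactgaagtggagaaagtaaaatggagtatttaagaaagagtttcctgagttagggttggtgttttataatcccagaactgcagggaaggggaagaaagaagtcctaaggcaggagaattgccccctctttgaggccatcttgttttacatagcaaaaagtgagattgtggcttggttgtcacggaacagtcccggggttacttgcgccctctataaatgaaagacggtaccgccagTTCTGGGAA
The RefSeq start of 9330175E14Rik lies 937 bases from the start of the row measured, so the window printed is that of another start. For Gm26797 and C230035I16Rik the starts lie 233 and 191 bases apart, and the windows do not hold the row's start either. Gm26797 holds 1 ISRE core and the last 3 hold 1 GAS each. Gm46404 rose with IFN-γ by 1.38 in siLuc and 0.64 in siPRMT7 cells (SE 0.10 each), C230035I16Rik by 1.07 and 0.78 (SE 0.13 each), and Gm26519 by 1.37 and 0.73 (SE 0.08 each).

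Starts of 59 members lay within 1 kb of the start of a tested coding gene, and those of another 49 between 1 and 10 kb. Where a member and its neighbour within 1 kb were both called with knockdown, the direction was the same for 16 of 30 pairs, and for 16 of 21 pairs with IFN-γ in siLuc cells. Between 1 and 10 kb it was the same for 26 of 30 and 15 of 20. Pairs of coding genes gave 57.8% and 68.9% within 1 kb and 62.0% and 70.0% between 1 and 10 kb. Within 1 kb, the 41 pairs that share no exon base had 12 of 20 and 10 of 15. The pairs between 1 and 10 kb include some that share exon bases, such as Gm26778 with Kctd12 and Gm26762 with Gpi1. These were not counted apart, so their part in the 26 of 30 is not given here. None of the 59 members within 1 kb of a tested coding start was at least 2-fold higher or lower with knockdown alone. Of the 39 members at least 2-fold higher, 35 started more than 10 kb from any tested coding start, as did 205 of all 313. Coding genes below the minimum level for a test were not searched.

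Many lincRNAs are held down by the nuclear RNA exosome, the complex that degrades unstable nuclear transcripts. Of 21 symbols listed for the exosome and its adaptors, some of them old and new names of the same gene, 19 were measured. With knockdown without IFN-γ 2 were higher and 16 lower, with a median of -0.39, against 38.9% of all genes lower. C1d, a cofactor of the nuclear complex, had 9.95, 9.93 and 10.02 in siLuc and 8.48, 8.41 and 8.51 in siPRMT7 libraries, a log2 difference of -1.502 (SE 0.05). Exosc8, a ring subunit, fell by 0.94 and Dis3, a catalytic subunit, by 0.81, while Zcchc7 rose by 0.53 and Zfc3h1 by 0.43. With IFN-γ present 3 were higher and 9 lower, against 38.7% of all genes lower. IFN-γ in siLuc cells gave 1 higher and 13 lower, against 32.7% lower, and in siPRMT7 cells 6 and 8, against 28.6% lower. No test linked these genes to the lincRNA levels. Imprinted lincRNAs could not be described among the members, since the 3 measured of 8 listed (Kcnq1ot1, Peg13 and Airn) have other biotypes.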

How the data were processed

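The 12 libraries of B16.F10 cells, 3 in each group, were read as single reads. The per-library values are on a log2 scale, rlog values deposited by the authors, per the file headers. The rlog method pulls genes with few reads toward their mean, so their changes and spread are understated. Reads were handled on mm10 (GRCm38) with DESeq2 1.26.0, HOMER 4.11.1, STAR 2.7.1a and Trimmomatic 0.39, tools that the submitters' processing notes list without order. The authors' deposited table also holds their own fold changes on a log2 scale, with p-values and adjusted p-values. Counts were not used.

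Tests ran on the 14407 genes whose mean rlog value reached 4, keeping the highest row of each symbol, with limma 3.58.1 (R 4.3.3). The model held 1 mean per group over all 12 libraries and a variance trend; tests were 2-sided, with Benjamini-Hochberg adjustment over every gene tested and a limit of 0.05 for a call. SE is that of the fit and SD that of 3 libraries. The script was tested on simulated data. Knockdown alone and IFN-γ in siLuc cells share the siLuc libraries and are not overlapped.

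The naming rule covers members with a gene name of their own and the 6 largest called rises and falls without overlap in each comparison. For the interaction, overlap was not a condition. It also covers the 3 nearest the threshold on each side and up to 3 called genes a list and comparison. Coding neighbours within 10 kb and overlapping genes complete it. Not all of these are described. Left out are Bvht, Dubr, Eif2c5, Fam120aos, Lncenc1, Lppos and Platr27, which have their own names, and Gm5546, among the largest rises for knockdown with IFN-γ. Some of them were called, such as Lppos with knockdown (-0.36 without and -0.41 with IFN-γ). Any other named gene was chosen after its values were seen. The members and lists were chosen with earlier results of these data known. Coordinates and lengths are those of the table, on mm10. Exon overlaps and distances between starts come from GENCODE M21, in which all 313 members stand, 230 with identical coordinates. Alternatives were other filters and scalings, no variance trend, a block for the replicate number, leaving out each library, and the authors' deposited table.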

Additional observations from a re-analysis of the deposited data

Results flagged for a closer look

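The values in this part are differences of IFN-γ responses, that in siPRMT7 minus that in siLuc cells, on the log2 scale, each from the limma interaction test at an adjusted p under 0.05. The members named here are those of the report's naming rule that passed. In the authors' deposited table the difference of log2 folds had the same sign for 27 of the 29, the others being C78283 and Gm33782. Both come from the same 12 libraries, and the 29 were chosen by their call, so the shared sign is no independent evidence.

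A larger rlog rise in siPRMT7 than in siLuc cells was found for AW112010 at 1.86, Gm7967 at 1.24, Gm35330 at 0.72, C78283 at 0.71 and Gm33782 at 0.56. On the scale of the authors' deposited table, the same difference of log2 folds was 0.40 for AW112010, 1.17 for Gm7967, 0.31 for Gm35330, -0.07 for C78283 and -0.01 for Gm33782, so it was near 0 for the last 2. A weaker fall was found for Zfp469 at 1.91, Gm31517 at 0.83 and Gm34425 at 0.46. Gm26813, at 0.84, was lower with IFN-γ in siLuc cells by -0.35 and higher in siPRMT7 cells by 0.49, with the first of these calls lost without the first siLuc library, at -0.17, and without the first or second siLuc library with IFN-γ, at -0.33 and -0.27.

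A weaker rise was found for Gm44148 at -1.91, Gm19705 at -1.41, Gm26797 at -0.74, AU020206 at -0.69 and Gm26519 at -0.64. Gm26840 at -0.77 rose in siLuc cells by 0.75, with -0.02 in siPRMT7 cells. Gm34368 had -0.38, a call that leaving out 1 library ended for 9 of the 12 libraries. A rise in siLuc cells and a fall in siPRMT7 cells were found for 2700054A10Rik at -0.85, for AC174800.1, which lies in it, at -0.82, and for Gm26778, which lies opposite Kctd12, at -0.47.

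A deeper fall in siPRMT7 cells was found for 4930558J18Rik at -0.82, Gm30074 at -0.70, Bc1 at -0.59, Gm10825 at -0.60 and Gm20619 at -0.45. D5Ertd605e had -0.67, Gm14005 -0.42, Pvt1 -0.38, Gm26527 (wholly opposite Arsb, which had -0.36) -0.33 and Tmem250-ps -0.20. Leaving out 1 library ended the call of Gm14005 for 7 of the 12 libraries, and that of Tmem250-ps likewise for 7.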

How the results depend on the processing

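The counts of members called kept within 1.5 times of those reported under every alternative, with 1 exception. The authors' deposited table called 105 members with IFN-γ in siLuc cells, against 158 here, and the cause was not tested. Leaving out 1 library at a time gave 213 to 229 calls for knockdown alone, 218 to 233 with IFN-γ, 144 to 159 and 132 to 148 for IFN-γ in siLuc and siPRMT7 cells, and 56 to 73 for the interaction. The balance of higher and lower calls moved with quantile normalization, as given in the report. The median member difference with IFN-γ in siLuc cells, 0.03, became -0.03 after median centring and -0.11 after quantile normalization, and that of the interaction, -0.03, became 0.01 and 0.08. Of 213 called values of members under the naming rule, none reversed in 3834 alternative fits and 32 lost their call in at least 1. Quantile normalization ended 18 calls, median centring 10, no filter 14, no variance trend 7 and leaving out 1 library 25. AY036118 and Gm42418 lost their calls for knockdown with IFN-γ (-0.62 and -0.61) without library 3 of siLuc with IFN-γ, at -0.33 and -0.32, and without library 3 of siPRMT7 with IFN-γ, at -0.50 and -0.49. Gm19705 lost its call there (0.19) without library 2 of siLuc with IFN-γ, at 0.14, and library 1 of siPRMT7 with IFN-γ, at 0.11. Members sharing no exon base, an alternative chosen after seeing the data, were called in 72.8% for knockdown alone and 54.9% for IFN-γ in siLuc cells, against 72.8% and 50.5% of all members. Replicate numbers, which the file headers call a series, were not taken as pairs, since no label says what they share and 5 of 18 same-number pairs had a correlation above 0.1 (-0.124 to 0.224), beside 3 of 36 other pairs. As a hint from the data that they may share something, 8 of 12 libraries correlated best with their own number. With the number as a replicate block, the calls were 231, 230, 162, 144 and 74 in the same order, and 0 named calls were lost. Members near the threshold have few reads, which limits what the rlog values can show.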
